A study of Caenorhabditis elegans with 7 samples.

Results

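Small RNA reads at the splice junctions of 6 genes that act at the entry of RNA interference were examined in Caenorhabditis elegans embryos. The genes were sid-1 and sid-2, whose proteins carry double-stranded RNA into cells, and dcr-1, rde-4, drh-1 and eri-3, which encode Dicer and proteins that work with it. They were chosen by name and role, and every junction that the deposited table assigned to one of those names was used. They held 34 of the 14533 lines with values, which made up 17 of 7678 introns, and they were 6 of the 3717 genes in the table. The label that joins them is one of function. Nothing in small RNA reads tests it.

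The libraries hold gel-purified small RNA from embryos freed from adult worms with bleach, in the N2 background. Mutants were rnp-2(mg582), with 2 libraries, and mog-2(ok1221), rnp-3(ok1424) and rnp-2(tm4058), with 1 library apiece, and 2 libraries were wildtype. rnp-2 encodes a U1 small nuclear ribonucleoprotein (snRNP) component, and mog-2 and rnp-3 encode components of the U2 snRNP. The U1 and U2 snRNPs recognise the start of an intron and its branch point. Experiment 1 held rnp-2(mg582) 1, mog-2(ok1221), rnp-3(ok1424) and wildtype 1, and experiment 2 held rnp-2(mg582) 2, rnp-2(tm4058) and wildtype 2. The sources used here do not say what kind of lesion each allele is. Separate cultures are not stated for any genotype, so the tests see only the variation among these 7 libraries, and that variation may be technical.

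As background, RNA interference in worms starts when Dicer cuts double-stranded RNA into short duplexes. Argonaute proteins carry one strand to matching transcripts, on which RNA-dependent RNA polymerases then make many secondary small RNAs. A small RNA read that crosses a spliced junction therefore matches processed RNA, and such reads at an RNA interference gene are small RNAs that match that gene, not a measure of its mRNA. SID-1 is a double-stranded RNA channel and SID-2 a transmembrane protein of the gut lining that takes up ingested double-stranded RNA. DCR-1 is the Dicer ribonuclease, RDE-4 its double-stranded RNA binding partner, DRH-1 a helicase of the RIG-I family that acts in antiviral defence, and ERI-3 a member of a Dicer complex that makes endogenous 26G small RNAs.

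All 17 introns coincide with annotated introns between coding exons of the WBcel235 annotation, to which the positions below refer. Their ends are shown for the introns on which the results below turn, namely both listed introns of sid-2, the intron with most reads in sid-1 and the pair with most reads in eri-3. The letters come from the deposited table, 5′ to 3′ on the strand of the gene. In donor sequences the capitals mark the first 6 bases of the intron, and in acceptor sequences the last 4.
sid-2 intron 3 donor: gcgaaGTGAGTaaaa
sid-2 intron 3 acceptor: tttgttGCAGttaca
sid-2 intron 4 donor: catcgGTAAGCcttt
sid-2 intron 4 acceptor: ggtattCCAGgccgc
sid-1 intron 5 donor: gtttgGTAGGTtttt
sid-1 intron 5 acceptor: cttattGCAGatacg
eri-3 intron 7 donor: ttcagGTAGATcaaa
eri-3 intron 7 acceptor: ttttttCCAGcgaat
eri-3 intron 8 donor: tttggGTAGGTttag
eri-3 intron 8 acceptor: ctgtttTCAGaacca
sid-2 intron 3 lies at III:13681375-13681934 on the plus strand (560 bp) and sid-2 intron 4 at III:13682087-13682292 (206 bp). sid-1 intron 5 lies at V:5123994-5125327 on the plus strand (1334 bp), eri-3 intron 7 at II:1126404-1126452 and eri-3 intron 8 at II:1126629-1126750, both on the plus strand. The donor hexamer GTGAGT of sid-2 intron 3 begins 13.0% of the 7678 listed introns. GTAAGC, that of sid-2 intron 4, begins 2.57%. GTAGGT is shared by sid-1 introns 5 and 6 and eri-3 intron 8 and begins 2.06% of listed introns. GTAGAT of eri-3 intron 7 begins 0.378%. Introns longer than 500 bp were 5 of the 17 member introns, 4 of them in sid-1 and 1 in sid-2, and 16.3% of the 6855 listed introns with both ends.

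The library totals, recovered from the steps of the deposited CPM (read counts relative to the library total), ran from 9901228 reads in rnp-3(ok1424) to 142819946 in rnp-2(tm4058). The share of a library that lay on listed junctions differed widely between the experiments, and spliced reads were fewest in rnp-2(tm4058), at 73850, against 474278 in wildtype 2. Levels are therefore given as scaled CPM, in which TMM factors set the bulk of the listed junctions equal between libraries. The lowest factor was 0.0846, for rnp-2(tm4058), and the highest 2.97, for rnp-3(ok1424). With library size alone the median log2 difference of all 3551 genes tested moved to -0.24 in rnp-2(mg582), -0.11 over the 5 mutant libraries, -0.96 in rnp-2(tm4058), 0.44 in mog-2(ok1221) and 0.54 in rnp-3(ok1424). All differences below are relative to that bulk. A lower level in these whole-embryo libraries cannot be told apart from fewer cells that carry the small RNAs.

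Of the 4 introns of sid-2 only introns 3 and 4 are listed, and reads at introns 1 and 2 are not known. At introns 3 and 4 sid-2, the gene for uptake from the gut, had spliced reads in the rnp-2 mutants and none in wildtype. It had 35 and 44 reads in rnp-2(mg582) 1 and 2, 14 reads in rnp-2(tm4058), 1 read in mog-2(ok1221), 4 reads in rnp-3(ok1424) and 0 reads in each wildtype library. In scaled CPM these are 1.13 and 1.33 in rnp-2(mg582), 1.16 in rnp-2(tm4058), 0.0293 in mog-2(ok1221), 0.136 in rnp-3(ok1424) and 0 in both wildtype libraries. In scaled CPM the 3 rnp-2 libraries did not overlap the other 4, a split whose share over all genes was not counted. As shares of the library the levels were 2.40 and 0.470 CPM in rnp-2(mg582) and 0.0980 in rnp-2(tm4058). In rnp-3(ok1424) the share was 0.404 CPM, above that of rnp-2(tm4058). The level of 3 reads over both wildtype libraries, 0.0240 scaled CPM, was taken as the limit that a count of 0 allows. The observed level of sid-2 was 51.3-fold above that limit in rnp-2(mg582) and 48.2-fold above it in rnp-2(tm4058), from 14 reads. For rnp-3(ok1424) it was 5.66-fold above, from 4 reads, and the single read of mog-2(ok1221) allows no fold. These folds bound the wildtype level alone and leave out the counting error of the mutant reads. The exact 95% counting interval of sid-2 was 0.0370 to 0.348 scaled CPM in rnp-3(ok1424) and 0.634 to 1.94 in rnp-2(tm4058). As shares of the whole library the folds were 26.6 in rnp-2(mg582), 3.57 in rnp-2(tm4058) and 14.7 in rnp-3(ok1424).

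In rnp-2(mg582) sid-2 averaged 1.23 ± 0.138 scaled CPM, against 0 in wildtype (SD, n = 2 each). The log2 difference was 1.79 ± 0.18 (SE), on the log2(scaled CPM + 0.5) scale, which understates the change of a gene this low. Its adjusted p was 0.00207 in limma with Benjamini-Hochberg adjustment over 3551 genes. It was the 1 member of 6 that passed, where 8.34% of all genes tested passed. Over 13 alternative settings the adjusted p of sid-2 ran from 1.41e-07 to 1, and 11 of the 13 passed. Among these were edgeR (9.15% of genes called) and DESeq2 (5.1%) on recovered reads. The call was lost with library size alone, where no gene passed (0.0%) and the log2 difference of sid-2 was 1.75, and without wildtype 1 (adjusted p = 0.0771). Neither sid-2 intron reached 0.5 CPM, the level at which lines are listed, in any library but rnp-2(mg582) 1. The gene thus stands in the table through that library, and without it the log2 difference in limma was 1.77 (adjusted p = 0.0146), in a fit that called 2.74% of genes. Of all 7678 introns, 54.8% reached that level in a wildtype library. In the fit of all 7 libraries sid-2 also passed the filter on low values through rnp-2(mg582) 1 alone. It was therefore tested because it was high in that genotype.

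rnp-2(tm4058), the other rnp-2 allele, had 1 library and is assumed to vary like the genotypes with 2. It was set against the same wildtype libraries as rnp-2(mg582), so the comparisons share their controls. sid-2 rose by a log2 difference of 1.73 ± 0.22 in it (adjusted p = 0.00789 in limma), again the 1 member called, where 7.97% of genes were. That call was lost with library size alone (log2 0.26, adjusted p = 0.766), without wildtype 1 (adjusted p = 0.135) and without wildtype 2 (adjusted p = 0.0563). Over 9 alternatives its adjusted p ran from 3.31e-05 to 0.766, and 6 passed. In mog-2(ok1221) the log2 difference of sid-2 was 0.08 ± 0.22 (adjusted p = 0.885) and in rnp-3(ok1424) it was 0.35 ± 0.22 (adjusted p = 0.574). The difference between the U1 and U2 mutants was tested directly, a contrast added after the data had been seen. The rnp-2 alleles exceeded mog-2(ok1221) and rnp-3(ok1424) by 1.54 ± 0.17 on the log2 scale (adjusted p = 0.00201 in limma), where 12.1% of genes were called. Without rnp-2(mg582) 1, the library through which sid-2 is listed, the difference was 1.49 (adjusted p = 0.00960), where 6.71% of genes were called. Experiment 1 then holds no rnp-2 library, so the rest of the contrast cannot be told apart from a difference between experiments. With library size alone the difference was 0.47 (adjusted p = 0.469), and the adjusted p of the 7 alternatives ran from 4.37e-05 to 0.469. No other member passed in that contrast. Between rnp-2(tm4058) and rnp-2(mg582), also a contrast added after the data had been seen, no gene passed in limma (0.0% called, 361 at an unadjusted p under 0.05), and sid-2 differed by -0.06 ± 0.22 (adjusted p = 0.936).

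The sid-2 gene (III:13679445-13682450, plus strand) overlaps dyf-2, which is on the opposite strand. Most of it, with both listed introns, lies within an intron of dyf-2, and 27 bases at the end of its last exon overlap an exon of dyf-2. Whether the counting used strand is not given in the sources used here. Spliced reads carry the sid-2 intron boundaries. Intron 3 had 25 and 27 reads in rnp-2(mg582), 7 in rnp-2(tm4058), 1 in mog-2(ok1221), 2 in rnp-3(ok1424) and 0 in both wildtype libraries. Intron 4 had 10 and 17 reads in rnp-2(mg582), 7 in rnp-2(tm4058), 0 in mog-2(ok1221), 2 in rnp-3(ok1424) and 0 in both wildtype libraries. Both introns stand in the table through rnp-2(mg582) 1 alone, so they were tested because they were high in that genotype. With that limit both passed in rnp-2(mg582), where 5.71% of 6881 introns did, and neither passed without that library. The log2 difference was 1.41 ± 0.17 for intron 3 (adjusted p = 0.00529 in limma) and 0.88 ± 0.17 for intron 4 (adjusted p = 0.0219). Over 9 alternatives the adjusted p ran from 4.76e-07 to 0.678 for intron 3 and from 0.000174 to 0.927 for intron 4. Leaving out wildtype 1 or wildtype 2 also ended both calls, as did library size alone, and leaving out rnp-2(mg582) 2 ended that of intron 4.

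**Figure D1:**
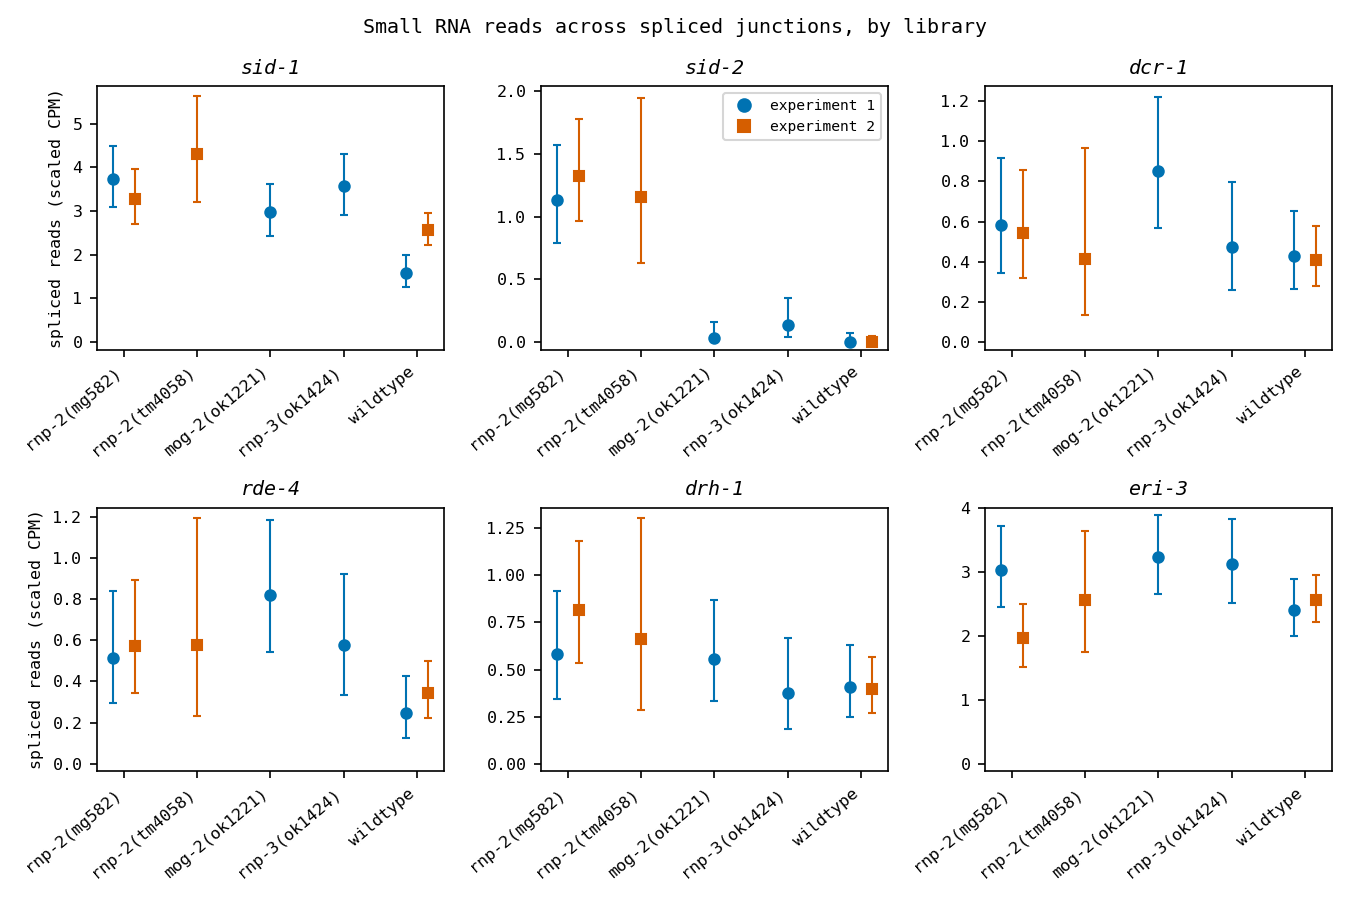
Spliced small RNA reads of each of the 6 genes (scaled CPM, linear axis from 0) in every library, with circles for experiment 1, squares for experiment 2 and bars for exact 95% Poisson intervals of the counts, which cover counting error only. The 3 rnp-2 libraries of sid-2 lie at 1.13 to 1.33 and the other 4 at 0 to 0.136, while in the other genes the intervals of mutant and wildtype libraries often overlap.

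sid-1, the gene of the double-stranded RNA channel (V:5119970-5126916), had 757 spliced reads in all, most of the 6 genes. Its level was 3.75 and 3.28 scaled CPM in rnp-2(mg582), 4.30 in rnp-2(tm4058), 2.99 in mog-2(ok1221), 3.57 in rnp-3(ok1424), and 1.59 and 2.57 in wildtype. All 5 mutant libraries lay above both wildtype libraries, with means of 3.58 ± 0.497 (SD, n = 5) in the mutants and 2.08 ± 0.692 (n = 2) in wildtype. Each mutant library therefore also lay above the wildtype library of its own experiment. The ratio of rnp-2(mg582) 1 to wildtype 1 was 2.35 and that of rnp-2(mg582) 2 to wildtype 2 was 1.28. It was 1.67 for rnp-2(tm4058), 1.88 for mog-2(ok1221) and 2.24 for rnp-3(ok1424), each over the wildtype library of its experiment. As shares of the whole library the ratio fell below 1 in experiment 2, at 0.528 for rnp-2(mg582) 2 and 0.165 for rnp-2(tm4058).

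The rnp-2(mg582) difference of sid-1 did not pass, at log2 0.66 ± 0.29 (adjusted p = 0.228 in limma). With experiment as a replicate block it did (adjusted p = 0.0321), in a fit that called 20.3% of all genes. Over 13 alternatives the adjusted p ran from 0.0321 to 1, and the block was the 1 that passed. In rnp-2(tm4058) the log2 difference was 0.92 ± 0.35 (adjusted p = 0.144), and 0.83 with the block (adjusted p = 0.0465, over 9 alternatives 0.0465 to 0.562), which called 18.6% of genes. In mog-2(ok1221) it was 0.46 ± 0.35 (adjusted p = 0.526) and in rnp-3(ok1424) 0.68 ± 0.35 (adjusted p = 0.496). The spread between the wildtype libraries of sid-1, 1.59 against 2.57, was the widest among the members in absolute terms.

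Most sid-1 reads fell on intron 5, between 61.5% and 69.8% of the gene's spliced reads in each of the 7 libraries. Its reads were 81 and 75 in rnp-2(mg582), 33 in rnp-2(tm4058), 67 in mog-2(ok1221), 68 in rnp-3(ok1424), and 48 and 130 in wildtype. The share did not separate the experiments, at 66.3 ± 2.69% in experiment 2 (SD, n = 3) and 65.5 ± 3.42% in experiment 1 (n = 4; two-sided exact permutation p = 0.8). Introns 2, 3, 4 and 6 held 92, 41, 72 and 50 reads over all libraries, and intron 1 was not listed. With the block intron 5 passed in rnp-2(mg582) (log2 0.70, adjusted p = 0.0172), where 19.6% of introns did, and without it the adjusted p was 0.274. Over its 9 alternatives the adjusted p ran from 0.0172 to 1.

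Dicer itself, dcr-1 (III:8071967-8080281, minus strand), had few reads, 136 over 3 of its 26 introns. Its level was 0.581 and 0.542 scaled CPM in rnp-2(mg582), 0.414 in rnp-2(tm4058), 0.850 in mog-2(ok1221), 0.476 in rnp-3(ok1424), and 0.428 and 0.409 in wildtype. mog-2(ok1221) was highest, with 29 reads, and rnp-2(tm4058) lay between the wildtype libraries with 5 reads. The largest difference, in mog-2(ok1221), was log2 0.56 ± 0.23 (adjusted p = 0.239 in limma). In rnp-2(mg582) it was 0.21 ± 0.19 (adjusted p = 0.586). None of the alternatives called dcr-1 in any comparison. None of its 3 introns reached 0.5 CPM in wildtype.

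rde-4, which encodes the double-stranded RNA binding partner of Dicer, was counted at its first intron alone (III:10218216-10218264, minus strand), with 125 reads. The level was 0.517 and 0.573 scaled CPM in rnp-2(mg582), 0.579 in rnp-2(tm4058), 0.821 in mog-2(ok1221), 0.577 in rnp-3(ok1424), and 0.245 and 0.343 in wildtype. All 5 mutant libraries lay above both wildtype libraries, at 0.613 ± 0.119 (SD, n = 5) against 0.294 ± 0.0692 (n = 2). Within experiments the ratio to wildtype ran from 1.67 in rnp-2(mg582) 2 to 3.35 in mog-2(ok1221) on scaled CPM. As shares of the library it was 0.690 in rnp-2(mg582) 2 and 0.167 in rnp-2(tm4058). The difference did not pass in any genotype. It was log2 0.40 ± 0.20 in rnp-2(mg582) (adjusted p = 0.290 in limma), 0.45 ± 0.24 in rnp-2(tm4058) (adjusted p = 0.274) and 0.44 ± 0.24 in rnp-3(ok1424) (adjusted p = 0.520). mog-2(ok1221) had the largest, 0.74 ± 0.24 (adjusted p = 0.148), where 2.14% of genes were called. With the block that was 0.80 (adjusted p = 0.0367, over 9 alternatives 0.0367 to 1), in a fit that called 14.8% of genes.

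drh-1, the RIG-I-like helicase gene, was listed at introns 3 and 4 of 19, on chromosome IV, with 133 reads. It had 0.581 and 0.814 scaled CPM in rnp-2(mg582), 0.662 in rnp-2(tm4058), 0.557 in mog-2(ok1221), 0.374 in rnp-3(ok1424), and 0.408 and 0.395 in wildtype. Both rnp-2(mg582) libraries lay above wildtype and rnp-3(ok1424) below it. The differences were log2 0.40 ± 0.20 in rnp-2(mg582) (adjusted p = 0.305 in limma), 0.37 ± 0.25 in rnp-2(tm4058) (adjusted p = 0.378), 0.23 ± 0.25 in mog-2(ok1221) (adjusted p = 0.667) and -0.05 ± 0.25 in rnp-3(ok1424) (adjusted p = 0.956). None passed.

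eri-3, the gene of the Dicer-associated ERI complex, had 704 reads over introns 7 to 10 of 10, on chromosome II. It had 3.04 and 1.96 scaled CPM in rnp-2(mg582), 2.57 in rnp-2(tm4058), 3.22 in mog-2(ok1221), 3.12 in rnp-3(ok1424), and 2.41 and 2.56 in wildtype. The rnp-2(mg582) libraries stood on either side of the wildtype libraries, and the log2 difference was -0.02 ± 0.28 (adjusted p = 0.983 in limma). It was 0.04 ± 0.34 in rnp-2(tm4058), 0.32 ± 0.34 in mog-2(ok1221) and 0.28 ± 0.34 in rnp-3(ok1424), and none passed.

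**Figure D2:**
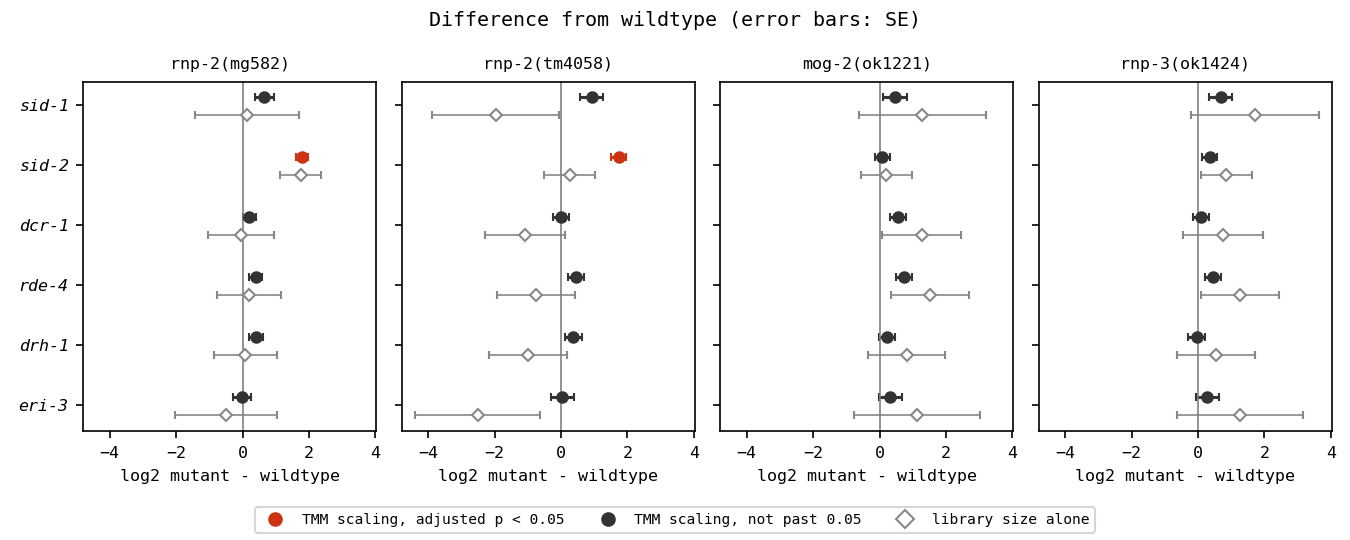
Difference of each gene from wildtype (log2 of scaled CPM + 0.5, mutant minus wildtype) in the 4 mutant genotypes, with bars for the SE of the limma fit. Filled circles use TMM scaling, red where the adjusted p is under 0.05, and open diamonds use library size alone. sid-2 in rnp-2(mg582) (1.79) and rnp-2(tm4058) (1.73) are the red points, and in rnp-2(tm4058) the open diamonds of sid-1, dcr-1, rde-4, drh-1 and eri-3 lie below 0 (-1.97, -1.08, -0.75, -0.99 and -2.51).

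Read together against wildtype, 3 of the 6 genes (sid-1, sid-2 and rde-4) had all 5 mutant libraries above both wildtype libraries in scaled CPM, where 5.35% of the 3551 genes did. As shares of the library that held for 1 of the 6, sid-2, and for 0.31% of genes. In rnp-2(mg582) alone 5 of the 6, all but eri-3, had both libraries above wildtype, where 23.7% of genes did. As shares of the library it was again sid-2 alone, against 3.21% of genes. All 6 members passed the filter on low values, sid-2 through rnp-2(mg582) 1 alone. Both listed introns of sid-2 stand in the table through rnp-2(mg582) 1, so its place in these counts was partly set by its listing. Introns that reached 0.5 CPM in a wildtype library were 1 of 5 in sid-1, 0 of 2 in sid-2 and 0 of 3 in dcr-1. They were 1 of 1 in rde-4, 1 of 2 in drh-1 and 2 of 4 in eri-3, where 54.8% of all introns did. The other member introns stand in the table through mutant libraries alone. The part of this in the counts and medians of the 6 was not tested. The median log2 difference of the 6 was 0.40 in rnp-2(mg582), where that of all genes tested was -0.02. The medians were 0.41 in rnp-2(tm4058) (all genes -0.08), 0.39 in mog-2(ok1221) (all genes -0.01) and 0.31 in rnp-3(ok1424) (all genes -0.03), and all of them share the same 2 wildtype libraries. With library size alone the median of the 6 was 0.11 in rnp-2(mg582) (all genes -0.24), 1.20 in mog-2(ok1221) (all genes 0.44) and 1.06 in rnp-3(ok1424) (all genes 0.54). In rnp-2(tm4058) it was then -1.04, below the -0.96 of all genes. In rnp-3(ok1424) no member was called, where 0.197% of genes were.

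With the 5 mutant libraries set against the 2 wildtype libraries, no member passed in limma. No gene did (0.0% called), while 328 had an unadjusted p under 0.05. edgeR called 0 genes and DESeq2 called 54 (1.52%), sid-2 among them (adjusted p = 0.00600). In limma sid-2 had a log2 difference of 1.15 ± 0.47 (adjusted p = 0.493), sid-1 0.68 ± 0.31 (adjusted p = 0.542) and rde-4 0.48 ± 0.20 (adjusted p = 0.5005). With the 3 rnp-2 libraries and wildtype alone in the fit sid-2 passed, at 1.38 (adjusted p = 0.000250), with 417 genes called (12.3%). Its adjusted p ran from 0.000250 to 1 over 16 alternatives.

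Among the genes themselves, levels were compared per listed junction. In wildtype eri-3 was highest, at 0.621 ± 0.0265 scaled CPM per junction (SD, n = 2). sid-1 followed at 0.416 ± 0.138, then rde-4 at 0.294 ± 0.0692, drh-1 at 0.201 ± 0.00444, dcr-1 at 0.139 ± 0.00466 and sid-2 at 0. The ranges of sid-1 and rde-4 overlapped. The other neighbours in that order did not overlap between the wildtype libraries. The median over all 7286 junctions in wildtype was 0.230, while the gene values are means over the listed junctions of a gene. In wildtype 1 and 2, sid-1 intron 5 had 0.979 and 1.71 scaled CPM, and its other listed introns had 0.122 to 0.343. The 1 listed junction of rde-4 lay above that median, and every listed junction of dcr-1 and sid-2 lay below it. In rnp-2(mg582) sid-2 reached 0.614 ± 0.0692 per junction, next to 0.703 ± 0.0652 for sid-1 and 0.624 ± 0.190 for eri-3.

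Within eri-3 the introns did not keep a fixed ratio between experiments. In experiment 2, intron 7 held 69.2% of the gene's spliced reads in rnp-2(mg582) 2, 74.2% in rnp-2(tm4058) and 61.9% in wildtype 2, and it held 44.7% to 52.2% in the 4 libraries of experiment 1. Intron 8 held 12.9% to 26.3% in experiment 2 and 35.9% to 46.8% in experiment 1. The ranges of the experiments did not overlap. Within experiment 2 the mutant libraries had higher shares than wildtype 2 at intron 7 and lower ones at intron 8. The spread within experiment 2 at intron 7, 12.3 percentage points, was wider than the gap of 9.68 points between the experiments. The difference for intron 7 was 20.7 percentage points, with a two-sided exact permutation p of 0.0571, the smallest that 3 libraries against 4 allow. The intron 8 share is not independent of it, since both are parts of the same total. This difference was noticed after the data had been seen. rnp-2(mg582) has a library in each experiment, and the intron 7 share was 69.2% in its experiment 2 library and 44.7% in its experiment 1 library.

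**Figure D3:**
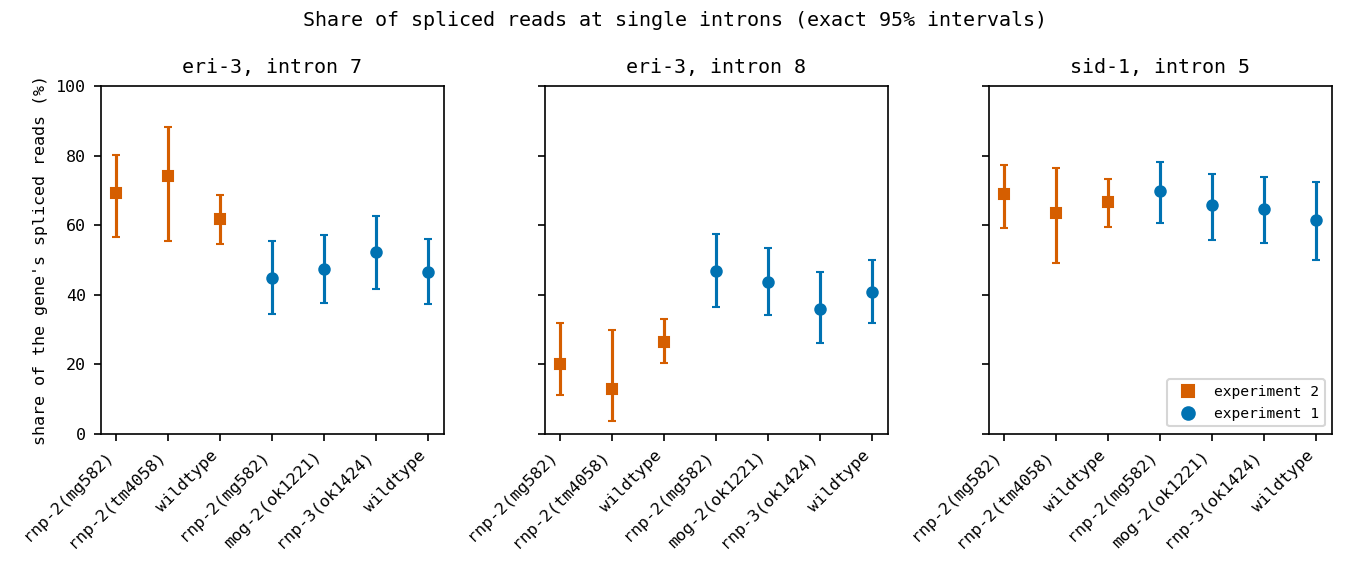
Share of the gene's spliced reads (%) at eri-3 introns 7 and 8 and at sid-1 intron 5 in each library, with exact 95% binomial intervals that cover counting error only. Squares are the 3 libraries of experiment 2 and circles the 4 of experiment 1. The eri-3 shares separate by experiment (61.9% to 74.2% against 44.7% to 52.2% at intron 7), and sid-1 intron 5 stays between 61.5% and 69.8%.

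Unspliced reads, which cross from exon into intron, were rare at all 6 genes. There were 17 at sid-1, 2 at sid-2, 6 at rde-4, 6 at drh-1, 4 at eri-3 and 0 at dcr-1, over all libraries. Unspliced reads were summed over both ends of an intron and spliced reads counted once, so the share sets 2 ends against 1 junction. So counted, the unspliced share was 2.20% of reads at sid-1 (exact 95% interval 1.28% to 3.49%) and 4.58% at rde-4 (1.70% to 9.70%). It was 4.32% at drh-1 (1.60% to 9.16%) and 0.565% at eri-3 (0.154% to 1.44%). At dcr-1 it was 0 of 136 reads, which allows a share of up to 2.21%. The median of the 6 was 2.10%, where the median over all genes was 0.813% and the pooled share of all genes 7.67%. Mutant libraries held 13 unspliced sid-1 reads beside 484 spliced, and wildtype libraries 4 beside 273. At sid-2 it was 1 unspliced read beside 98 spliced in the mutants, and 1 beside 0 in wildtype. No member had enough unspliced reads to pass the filter (489 of 3717 genes did), so genotypes were not compared on them.

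The list of 26 other genes of double-stranded RNA uptake, Dicer and its pathways had 13 members in the tests. In rnp-2(mg582) 1 of the 13 rose and 0 fell, where 8.34% of all genes were called, a share near that of the list. The median log2 difference of the list was -0.17. The 1 that rose was rsd-3, whose epsin-like protein is needed for RNA interference to spread between cells. It averaged 0.343 ± 0.0168 scaled CPM in rnp-2(mg582), from 11 reads in each library, and 0.0599 ± 0.0271 in wildtype, from 2 and 6 reads (SD, n = 2 each). Its log2 difference was 0.59 ± 0.14 (adjusted p = 0.0375 in limma). Like sid-2, its listed intron reached 0.5 CPM in rnp-2(mg582) 1 and in no other library, so it was tested because it was high there. Without that library, and with wildtype and rnp-2(mg582) alone in the fit, it did not pass the filter on low values and has no value, and DESeq2 gave it no adjusted p. Over the other 10 alternatives its adjusted p ran from 0.00671 to 1, and 6 passed. It was lost with library size alone and without wildtype 1, wildtype 2 or rnp-2(mg582) 2.

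In rnp-2(tm4058) 2 of the 13 rose, rsd-3 (log2 0.95 ± 0.17, adjusted p = 0.0176 in limma) and rde-11, and 0 fell, where 7.97% of all genes were called. rde-11 encodes a zinc finger protein needed to amplify secondary small RNAs. It had 16.4 and 20.7 scaled CPM in rnp-2(mg582), 24.4 in rnp-2(tm4058), 22.3 in mog-2(ok1221), 23.0 in rnp-3(ok1424), and 8.49 and 11.3 in wildtype. All mutant libraries of rde-11 lay above wildtype, and the call in rnp-2(tm4058) (log2 1.28 ± 0.30, adjusted p = 0.0447) turned to -2.49 with library size alone. It was also lost with no filter and without either wildtype library. rsd-3 in that comparison stood at -0.08 with library size alone and lost its call in edgeR and without either wildtype library. In mog-2(ok1221), in rnp-3(ok1424) and over the 5 mutant libraries 0 of the 13 rose or fell, where 2.14%, 0.197% and 0.0% of all genes were called. With the replicate block rde-11 also passed in rnp-2(mg582) (log2 0.88, adjusted p = 0.000584), in mog-2(ok1221) (adjusted p = 0.000312) and in rnp-3(ok1424) (adjusted p = 0.000844). Those fits called 20.3%, 14.8% and 4.2% of all genes. Without the block its adjusted p was 0.0693, 0.0945 and 0.194 in those 3 genotypes. eri-6, part of a trans-spliced helicase gene of the ERI pathway, was at 17.2 and 12.3 scaled CPM in rnp-2(mg582), 9.85 in rnp-2(tm4058), 28.6 in mog-2(ok1221), 23.0 in rnp-3(ok1424), and 22.6 and 19.7 in wildtype. It was lower in the rnp-2 alleles than in mog-2(ok1221) and rnp-3(ok1424) (log2 -1.07 ± 0.23, adjusted p = 0.0229), and over 7 alternatives the adjusted p ran from 0.00816 to 0.260. That call was lost with library size alone and without either wildtype library. Against wildtype eri-6 passed only with the block, at log2 -0.52 in rnp-2(mg582) (adjusted p = 0.0385) and -0.90 in rnp-2(tm4058) (adjusted p = 0.00801), in fits that called 20.3% and 18.6% of genes. rsd-3 was higher in the rnp-2 alleles than in mog-2(ok1221) and rnp-3(ok1424) (log2 0.89 ± 0.13, adjusted p = 0.00490, over 6 alternatives 0.00149 to 0.334). That contrast called 12.1% of genes. The listing of rsd-3 through rnp-2(mg582) 1 alone put it on the higher side of the contrast beforehand. It had 1 read in mog-2(ok1221) and 0 reads in rnp-3(ok1424).

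Of the mutated loci, rnp-2 and rnp-3 are paralogs whose reads may not be separable, and together they had 69 spliced reads in the mutants and 39 in wildtype. They were at 0.248 to 0.879 scaled CPM in the mutants and 0.303 to 0.326 in wildtype, and small RNA reads do not check an allele. mog-2 was not analysed here. Of marker lists, the table held 6 of 6 germline and early embryo genes, 4 of 4 neuronal, 2 of 4 muscle, 3 of 6 sperm and 0 of 5 intestinal genes. Their summed small RNA levels in scaled CPM were 7.71 to 10.3 in mutants and 8.26 to 10.6 in wildtype for the germline list. They were 15.0 to 36.8 in mutants and 28.2 to 36.5 in wildtype for neurons, and 0.784 to 1.73 in mutants and 1.27 to 2.65 in wildtype for muscle. The sperm list had 1.16 to 2.93 in mutants and 2.91 to 3.57 in wildtype, and the part of any of these in the results was not tested. Since small RNA reads at a gene are not its mRNA, these lists do not check the labelled tissue.

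The genes whose level followed each member most closely over the 7 libraries were found by Pearson correlation of log2(scaled CPM + 0.5), as a description of 7 points that share libraries. For sid-1 they were Y11D7A.9 (0.93) and tlf-1 (0.92). For dcr-1 they were atgp-1 (0.97) and ZK945.4 (0.97), and for rde-4 cutl-15 (0.98) and B0348.5 (0.96). For drh-1 they were dpy-1 (0.99) and snrp-200 (0.99), and for eri-3 C31H5.5 (0.93) and rmd-1 (0.93). sid-2, with 98 reads, was under the 100 reads set for this.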

How the data were processed

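Each library has an EEJ and an IEJ column of CPM at intron ends, which the authors deposited as read counts relative to the library total. The labels leave both terms unexplained, and they were taken as spliced (exon-exon) and unspliced (intron-exon) junctions. The submitters' processing notes name STAR and SAMtools, without versions or roles. Neither the genome build nor the use of strand or of multiply aligned reads is given in the sources used here. Of the lines, 98.1% coincide with WBcel235 intron boundaries, and positions were read as that build. Per library, every CPM value (100%) was a multiple of 1 step to within 1e-06 reads, and this gave whole reads and library totals. Each listed line reached at least 0.505 CPM in some library. 24 lines without values were not analysed here.

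Lines were joined into 7678 introns. Introns of 1 gene whose reads differed by at most 5% with at least 20 reads were counted once, which left 7286 junctions. Spliced reads were summed per gene over these junctions, and unspliced reads over the listed ends of all introns. The test was limma 3.58.1 (trended) on log2(scaled CPM + 0.5), with TMM factors from edgeR 4.0.16 and Benjamini-Hochberg adjustment, in R 4.3.3. The filter (minimum count 10, minimum total 15) kept 3551 genes. All 7 libraries entered 1 fit with a coefficient per genotype, and a second fit set mutants against wildtype. Alternatives were other scalings, pseudocount 0.1, no filter, edgeR and DESeq2 1.42.0 on recovered reads, experiment as a replicate block, unjoined introns, fewer genotypes and each library left out. The scripts were tested on simulated data. Titles give the experiment number, and same-numbered wildtype and rnp-2(mg582) libraries deviated together (correlation 0.38 over 3551 genes), so the number pairs them. The main fits held no term for experiment and so did not use this pairing. It entered only in the alternative with the replicate block.

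Planned tests of unspliced reads and of their ratio to spliced reads were not run, because no member passed their filter. Every member and every listed intron was named. From a pathway list of 26 genes those were named that passed in a comparison with wildtype or averaged at least 5 scaled CPM, and for each member with at least 100 reads the 2 genes of highest correlation. Members, lists and tests were chosen with earlier results of these data known. rde-8 and rde-12 stand in the table as ZC477.5 and F58G11.2. Intervals and limits cover counting error only.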

Additional observations from a re-analysis of the deposited data

Results flagged for a closer look

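rde-4 in mog-2(ok1221), at 0.821 scaled CPM from 28 reads, stood apart from the other 4 mutant libraries, which lay between 0.517 and 0.579. The gap to the nearest of them was 0.793 of the whole range, above Dixon's critical value of 0.71 for 5 values. Both ends of 6 genes were examined and 1 of 12 was marked, and by chance about 1 group in 20 is. The exact counting interval of this value, 0.545 to 1.19, includes the values of 3 of the other 4.

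sid-2 differed between mutant groups. The rnp-2 alleles exceeded mog-2(ok1221) and rnp-3(ok1424) by 1.54 on the log2 scale, by a direct test of that difference in limma, added after the data had been seen. That contrast called 12.1% of genes, and with library size alone the difference was 0.47 and did not pass. Both sid-2 introns are listed through rnp-2(mg582) 1 alone, a library on the higher side of the contrast. In scaled CPM the order was the same in all 3 rnp-2 libraries. By share of the library it was not, since rnp-2(tm4058), at 0.0980 CPM, lay below rnp-3(ok1424), at 0.404 CPM. Of the 3 rnp-2 libraries, 2 belong to the other experiment than mog-2(ok1221) and rnp-3(ok1424).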

How the results depend on the processing

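Of the values for the 6 members and 3 pathway genes under the alternatives, 540 of 604 kept their direction and side of the threshold, 30 reversed, 14 passed newly and 20 were lost. Of those for introns, 127 of 149 kept both, 12 reversed, 1 passed newly and 9 were lost. The main counts of genes called were 296 in rnp-2(mg582), 283 in rnp-2(tm4058), 76 in mog-2(ok1221), 7 in rnp-3(ok1424), 0 over the 5 mutants, 430 for the rnp-2 alleles against mog-2(ok1221) and rnp-3(ok1424), and 0 between the rnp-2 alleles, and 393 introns were called in rnp-2(mg582). With library size alone they were 0, 0, 2, 2, 0, 0 and 0, with 0 introns. With the replicate block they were 722, 661, 527, 149, 0, 546 and 49, with 1346 introns, and the block changed no member's call beyond those given with the results. With no filter rnp-2(tm4058) had 121, mog-2(ok1221) 2 and rnp-3(ok1424) 4. edgeR called 138 in rnp-2(tm4058) and 4 in rnp-3(ok1424). DESeq2 called 181 in rnp-2(mg582) and 54 over the mutants, and the fit on rnp-2 and wildtype libraries 417. With 1 library left out at a time the counts ran from 1 (without wildtype 1) to 141 in rnp-2(mg582), 0 to 32 in rnp-2(tm4058), 0 to 0 in mog-2(ok1221) and in rnp-3(ok1424), 0 to 86 (without rnp-3(ok1424)) over the mutants, 148 to 308 for the rnp-2 alleles against mog-2(ok1221) and rnp-3(ok1424), and 0 to 65 for introns.

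2 called values reversed, those of rde-11 and rsd-3 in rnp-2(tm4058), and no member had passed in a comparison in which its direction reversed. With library size alone log2 was -0.047 for dcr-1 in rnp-2(mg582), -0.22 for eri-3 over the mutants, 0.54 for drh-1 in rnp-3(ok1424), and in rnp-2(tm4058) -0.99 for drh-1, -2.51 for eri-3, -0.75 for rde-4, -1.97 for sid-1, -2.49 for rde-11 and -0.084 for rsd-3. For the rnp-2 alleles against mog-2(ok1221) and rnp-3(ok1424) it was -1.14 for drh-1 and -2.41 for sid-1, and between the rnp-2 alleles -2.01 for eri-3, -0.95 for rde-4 and -2.12 for sid-1. eri-3 in rnp-2(mg582) became 0.0064 in edgeR, 0.0062 in the fit on wildtype and rnp-2(mg582) alone and 0.016 in DESeq2. dcr-1 in rnp-2(tm4058) became 0.011 with median-of-ratios scaling and 0.014 with the block. With the block drh-1 became 0.020 and eri-6 -0.042 in rnp-3(ok1424), and rde-4 -0.016 between the alleles. Among introns, library size alone gave -0.41 for eri-3 intron 7, -0.10 for dcr-1 intron 5, -0.064 for drh-1 intron 4 and -0.12 for sid-1 intron 6, and edgeR 0.14 for eri-3 intron 8. With 1 library left out at a time, values that crossed 0 ran from -0.23 to 0.27 for eri-3 in rnp-2(mg582), -0.0079 to 0.0091 for dcr-1 in rnp-2(tm4058) and -0.17 to 0.0055 for rde-11 in the rnp-2 alleles against the U2 mutants. Between the rnp-2 alleles they ran from -0.017 to 0.0995 for rde-4, -0.20 to 0.12 for drh-1, -0.20 to 0.27 for eri-3 and -0.17 to 0.034 for sid-2. For introns in rnp-2(mg582) they ran from -0.17 to 0.24 for eri-3 intron 7, -0.50 to 0.59 for eri-3 intron 8, -0.31 to 0.16 for dcr-1 intron 8, -0.19 to 0.050 for sid-1 intron 3 and -0.088 to 0.16 for sid-1 intron 6. The causes of these changes were not tested.

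The alternatives planned for unspliced reads and for their ratio to spliced reads were not run. Reads limit these results. dcr-1, rde-4 and drh-1 have 125 to 136 reads over 7 libraries, and in rnp-2(tm4058) 5 to 8. Junctions under about 0.5 CPM in every library are not listed, which is 5 reads in rnp-3(ok1424) and 72 in rnp-2(tm4058).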
